A study of Homo sapiens with 4 samples.

Results

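Small nucleolar RNA (snoRNA) host genes are described here in nuclear RNA of MDA-MB-231 cells that overexpressed the N6-methyladenosine reader YTHDC1. Members were all transcripts whose gene is named SNHG followed by a number alone, or is GAS5, DANCR or ZFAS1, and every listed transcript of these genes was kept. The rule found 187 transcripts of 30 genes among the 75165 transcripts of 20298 genes in the deposited table, and no measured value entered it. MDA-MB-231 is a mesenchymal triple negative breast cancer line. Its cells received Flag-tagged YTHDC1 under a CMV promoter from a lentivirus, at 4 infectious units per cell. Those with the vector were selected with puromycin (2 μg/ml, listed as 4 days). The paper states 4 days for knockout cells of this line and gives no selection time for the overexpressing cells. RNA was then taken from UV-crosslinked nuclei either as input, from lysate with 50 μg of protein, or after immunoprecipitation (IP) from lysate with 500 μg of protein with 5 μg of anti-Flag antibody, and each of these groups had 2 libraries. All 4 libraries thus came from cells with the transgene, and cells without it, or an IP with control IgG, are not analysed here.

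The value used throughout is the authors' mean normalized count of a transcript over the 4 libraries together. It pools IP and input, so it shows how many reads were assigned to a transcript in the experiment as a whole and not how far YTHDC1 recovered it. The authors' own comparison of IP with input is not used here, and the depth of each library is unknown because the table gives no value per library. For the same reason no SD, no n and no test accompany the values, and all comparisons below are descriptions. Counts also grow with transcript length, which was not available here. Counts of different genes are thus given as the number of reads behind each gene and are not ranked as expression levels. The same limit holds within a gene. Leading shares, effective numbers of transcripts and retained-intron shares below are shares of reads, not of RNA molecules. In bulk RNA, fewer cells with a transcript and less of it per cell cannot be told apart. Of the markers of the cell line, VIM, CD44, EGFR, FN1 and ZEB1 were all listed, with summed mean normalized counts from 1823 (ZEB1) to 80785 (VIM). Of the luminal or epithelial markers, ESR1 and PGR had no listed transcript, CDH1 had a summed mean normalized count of 10.0, EPCAM had 78.3 and ERBB2 had 4303. YTHDC1, the overexpressed gene, had 55488 over 6 transcripts.

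snoRNA host genes are transcribed by RNA polymerase II and spliced, and the snoRNAs are trimmed out of the excised introns. Box C/D snoRNAs guide 2′-O-methylation and box H/ACA snoRNAs guide pseudouridylation, mostly of ribosomal RNA, while the related small Cajal body RNAs (scaRNAs) guide the same changes on spliceosomal RNAs. The spliced exons of a host gene such as GAS5 encode no long conserved protein, and many are degraded in the cytoplasm by nonsense-mediated decay once ribosomes meet their early stop codons. Host genes of ribosomal protein and SNHG type are known for transcripts that begin with a cytosine followed by a run of pyrimidines, the terminal oligopyrimidine start. YTHDC1 is the nuclear member of the YTH family of readers and takes part in splicing, in nuclear export of methylated RNA and in the fate of nuclear noncoding RNAs.

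Because such starts are a feature of the class that the choice by name did not use, the annotated start was examined in RefSeq (GRCh38.p14), which gave a start sequence for 26 of the 30 genes. The letters CTTT, read on the transcribed strand, were sought within 10 bases on either side of the annotated start. They began there in 9 of these 26 genes (34.6%), against 10.4% of all 35116 RefSeq promoters. In SNHG5, SNHG19, SNHG32 and ZFAS1 they began at the start base itself. These 4 are shown, with GAS5 as a member that lacks the letters near its annotated start. CTTT does not cover every pyrimidine run. SNHG1, SNHG7, SNHG18 and SNHG26, not counted here, have a cytosine followed by other pyrimidines at the annotated start, with the shortest run in SNHG1. Lack of the letters thus does not mean that a gene lacks a terminal oligopyrimidine start. Each sequence has 30 bases, 14 before the annotated start and 16 from the start base on, with CTTT in capitals.
SNHG5: ctgcgcacttcggtCTTTtacgtcggcctt
SNHG19: tcgcccgcccctgtCTTTtcggggtcgagt
SNHG32: tcgccattttagttCTTTttgcgaagtggg
ZFAS1: ggaagccattcgttCTTTcgcgtctgcggt
GAS5: gccatcatgaattcagatgtgtttattttg
The windows lie at chr6:85678718-85678747 on the minus strand (SNHG5), chr16:2155343-2155372 on the minus strand (SNHG19), chr6:31834902-31834931 on the plus strand (SNHG32), chr20:49278628-49278657 on the plus strand (ZFAS1) and chr1:173869030-173869059 on the minus strand (GAS5). The other 5 genes with CTTT within 10 bases were SNHG4, SNHG8, SNHG12, SNHG16 and SNHG29. In SNHG8 and SNHG29 the letters lay before the annotated start, and so outside the annotated transcript. The starts used for ZFAS1 and SNHG12 lie inside the annotated spans of these genes, and annotated starts of other members can also differ from those used in these cells. The E-box CACGTG, a palindrome and so the same on both strands, was present in the 300-base promoters of 2 of the 26 genes (7.69%), SNHG7 and SNHG30, against 7.26% of all promoters.

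A few genes held most of the reads on the class, and how far the same holds in other sets of genes was not examined. The summed mean normalized count of a gene ran from 7.08 for SNHG31 to 2606 for SNHG29, with a median of 179, and the class as a whole held 0.0415% of all counts in the table. SNHG29, SNHG7, SNHG17, GAS5 and SNHG16 each exceeded 1000 and together held 58.3% of the counts of the class, and 10 genes held at least 80%. GAS5, named for its rise in growth-arrested cells and the host of many box C/D snoRNAs, had 1096 over 14 transcripts. SNHG7 had 2055 over 7 transcripts and SNHG17 had 1250 over 25, the most transcripts of any member. SNHG16, which hosts the SNORD1 snoRNAs, had 1058 over 7.

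**Figure D1:**
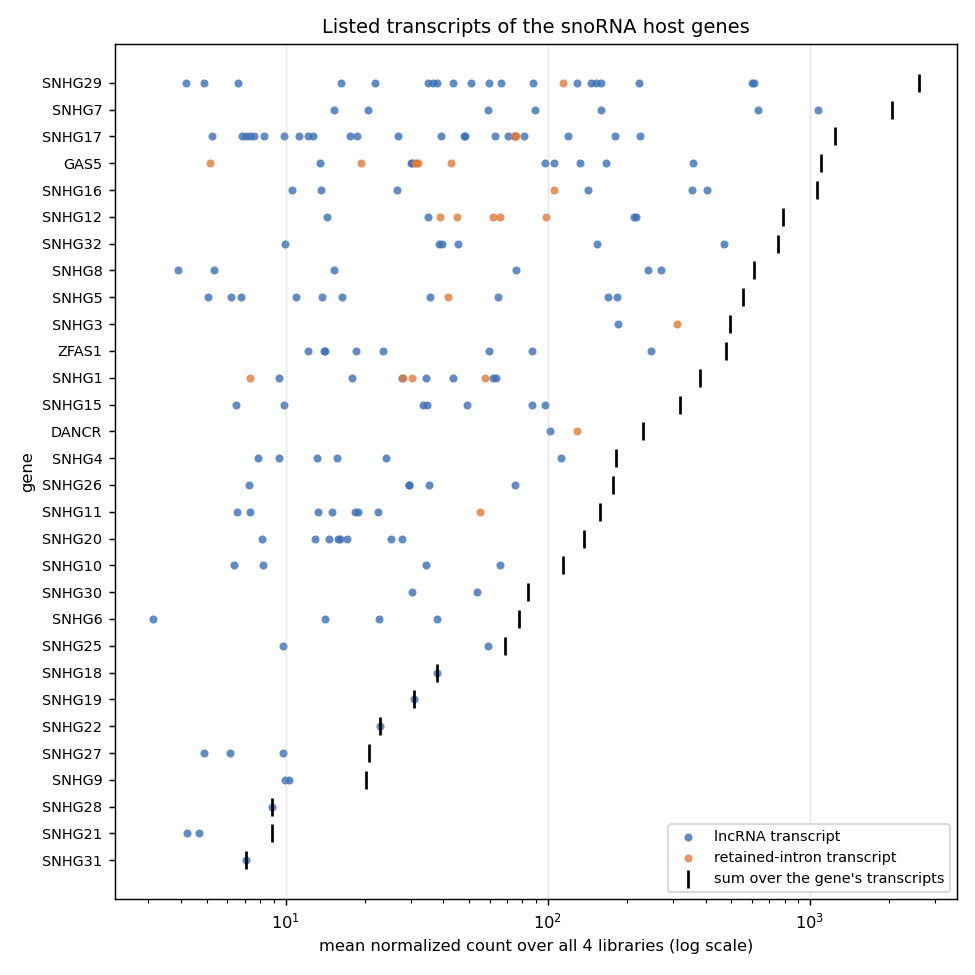
Mean normalized count of each listed transcript (points, log scale, blue for lncRNA and orange for retained-intron transcripts) and the sum over each gene (black ticks), 1 row per gene. Sums run from 7.08 (SNHG31) to 2606 (SNHG29), and within SNHG29 the transcripts themselves run from 4.16 to 613.

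A middle group of genes had sums between 114 and 787. It held SNHG12 (787), SNHG32 (756), SNHG8 (611), SNHG5 (555), SNHG3 (496), ZFAS1 (476), SNHG1 (381), SNHG15 (318), DANCR (231), SNHG4 (182), SNHG26 (177), SNHG11 (157), SNHG20 (138) and SNHG10 (114). SNHG1 was the first host gene described for intronic snoRNAs whose exons code for no protein. ZFAS1 is transcribed from the antisense side of the ZNFX1 promoter, and DANCR is known as a lncRNA that restrains differentiation. The other 11 genes lay below 100. They were SNHG30 (83.9), SNHG6 (77.9), SNHG25 (68.8), SNHG18 (37.6), SNHG19 (30.8), SNHG22 (23.0), SNHG27 (20.8), SNHG9 (20.2), SNHG28 (8.89), SNHG21 (8.88) and SNHG31 (7.08). At such counts the division among isoforms of 1 gene rests on few reads, and no order among these genes is read from the values.

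Single member transcripts had a median of 31.1 mean normalized counts, with quartiles of 13.0 and 74.8, a lowest value of 3.13 for SNHG6-201 and a highest of 1076 for SNHG7-201. Transcripts of other lncRNA genes had a median of 15.7, and all listed transcripts had a median of 44.2. At least 100 counts were reached by 36 of the 187 member transcripts (19.3%), against 10.7% of the transcripts of other lncRNA genes and 34.6% of all listed transcripts. Another 39 member transcripts were below 10. The table lists only what passed the authors' read minimum, so transcripts below it do not enter these shares.

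Many host genes had several listed isoforms. The median member had 5.50 listed transcripts, and 16 of the 30 genes (53.3%) had at least 5, against 4.46% of the 3608 other lncRNA genes and 30.4% of all listed genes. Only SNHG18, SNHG19, SNHG22, SNHG28 and SNHG31 had 1 listed transcript (16.7%), against 77.2% of the other lncRNA genes. The number of listed transcripts depends on how richly a gene is annotated and on its read number, since a transcript is listed only above a read minimum.

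In most host genes with several isoforms, no single transcript held the bulk of the reads. Among the 25 members with at least 2 listed transcripts, the leading transcript held a median of 47.0% of the gene's counts, and it reached 50% in 11 of them (44.0%). In other lncRNA genes with at least 2 transcripts the median was 58.7% and 72.1% reached 50%. A gene with exactly 2 listed transcripts reaches 50% by construction. This was so for SNHG3, DANCR, SNHG30, SNHG25, SNHG9 and SNHG21, and for 388 of the 824 other lncRNA genes. The percentages reaching 50% are therefore in part fixed by transcript number. The leading share falls as the number of transcripts rises, so genes with at least 5 transcripts were also set side by side. There the median was 34.1% in the 16 members, 38.8% in 161 other lncRNA genes and 49.6% in all 6171 listed genes, and 50% was reached by 25.0%, 26.7% and 49.1%. The difference between host genes and other lncRNA genes was thus smaller among genes of at least 5 transcripts. Against the median of all listed genes with the same number of transcripts, available for 23 members, 18 had a lower leading share and 5 a higher one (SNHG7, SNHG32, ZFAS1, SNHG4 and SNHG25). Other lncRNA genes, with medians at 2 to 6 transcripts only, had lower ones (67.7% against 76.8% at 2, 43.6% against 52.4% at 6). Of the members with 2 to 6 transcripts, SNHG25, SNHG10, SNHG32, SNHG8 and SNHG4 were above these lncRNA medians and the others below.

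**Figure D2:**
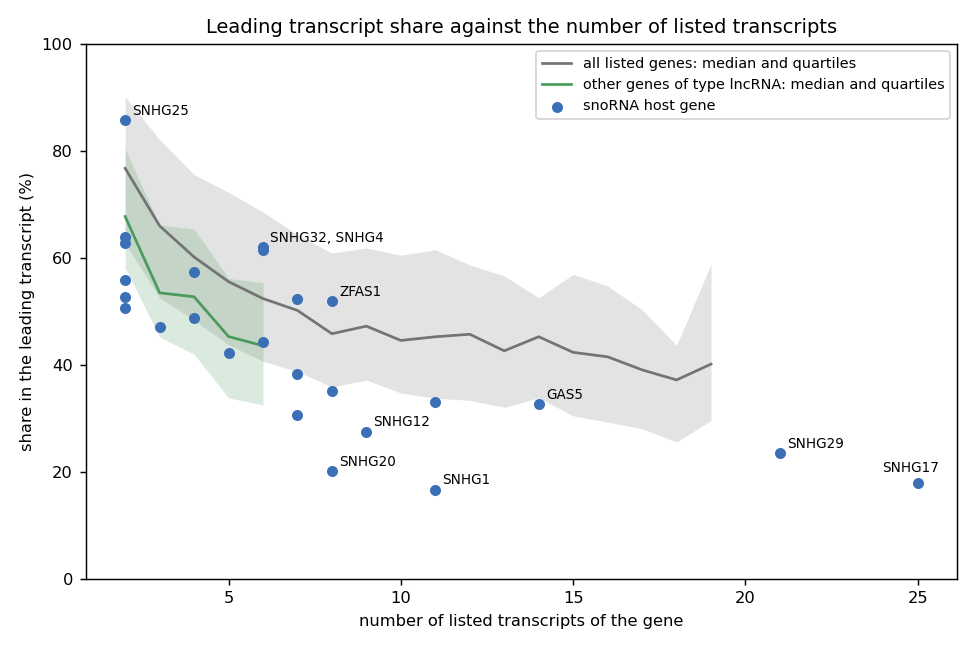
Share of a gene's counts in its leading transcript (%) against its number of listed transcripts, for each host gene with at least 2 (points), with the median (lines) and quartiles (bands) of all listed genes and of other lncRNA genes at numbers with at least 20 genes. Of 23 host genes with such a median for all listed genes, 18 lie below it and 5 above.

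SNHG17 had the highest effective number of transcripts, the number of equal transcripts that would give the same summed squared shares. Its leading transcript SNHG17-241 had 224 counts (18.0%), followed by SNHG17-271 with 180 (14.4%), and its 25 transcripts had an effective number of 11.3. SNHG1 came next at 8.48 of its 11 transcripts and had the lowest leading share (16.7%), with SNHG1-217 (63.4 counts), SNHG1-243 (61.6), SNHG1-209 (57.4) and SNHG1-213 (43.3) each above 10%.

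SNHG29 had 2 transcripts of nearly equal counts, SNHG29-209 with 613 (23.5%) and SNHG29-243 with 598 (22.9%). SNHG20 was split among 8 transcripts from 8.11 to 27.7 counts, led by SNHG20-217. In SNHG12 the leading SNHG12-210 had 216 and SNHG12-212 had 212 counts. In 10 of the 25 genes the leading transcript was under 1.2 times the second, so which transcript leads rests there on a small difference whose error is unknown.

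Other well-covered genes had a clear first transcript. GAS5-218 had 358 counts (32.7%), against 167 for GAS5-224 and 132 for GAS5-221. SNHG32-203 held 62.0% of its gene with 469 counts, against 154 for SNHG32-204, and SNHG4-202 held 61.5% with 112. ZFAS1-204 held 51.9% with 247 counts, against 86.9 for ZFAS1-201 and 59.9 for ZFAS1-214.

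Several genes were carried by a pair of transcripts. SNHG7-201 with 1076 and SNHG7-205 with 635 counts made up 83.3% of SNHG7, and SNHG8-201 with 270 and SNHG8-205 with 241 made up 83.6% of SNHG8. SNHG16-202 with 405 and SNHG16-204 with 354 made up 71.7% of SNHG16, where SNHG16-207 added 143. SNHG5-277 with 184 and SNHG5-202 with 170 made up 63.8% of SNHG5. In SNHG8, SNHG8-208 added 75.8 counts, and in SNHG5, SNHG5-214 added 64.7.

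Among genes with fewer reads, SNHG15 was shared by 5 transcripts of at least 10% each. These were SNHG15-205 (97.7 counts), SNHG15-204 (86.9), SNHG15-208 (49.4), SNHG15-202 (34.7) and SNHG15-210 (33.5). SNHG26-209 had 74.7 counts (42.3%), and SNHG26-201, SNHG26-212 and SNHG26-206 had 35.3, 29.7 and 29.6, while SNHG26-204 had 7.26. SNHG20-206 had 25.3 counts, and SNHG20-212, SNHG20-205, SNHG20-215 and SNHG20-213 had 17.2, 16.2, 15.8 and 14.7.

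SNHG10-203 had 65.5 counts (57.3%) and SNHG10-201 had 34.2. SNHG30-204 had 53.6 (63.8%) and SNHG30-201 had 30.4. SNHG25-202 had 59.0 (85.8%), the largest leading share among members with at least 2 transcripts, and SNHG25-201 had 9.79. SNHG6 was led by SNHG6-203 with 37.9 counts, before SNHG6-205 with 22.7 and SNHG6-202 with 14.1. SNHG4-201 had 24.2 counts beside its leading transcript.

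The lowest genes were divided over counts of about 10 or less. SNHG9-202 had 10.3 and SNHG9-201 had 9.98, SNHG27-208, SNHG27-215 and SNHG27-211 had 9.79, 6.13 and 4.89, and SNHG21-201 and SNHG21-202 had 4.68 and 4.20. The 5 genes with 1 listed transcript were carried by SNHG18-201, SNHG19-201, SNHG22-202, SNHG28-203 and SNHG31-204.

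The transcript numbered 201, often taken as the default form of a gene, was listed in 16 of the 25 genes with several transcripts and led in 3 of them. The same counts were not taken over other genes, so they are not read as a trait of host genes.

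**Figure D3:**
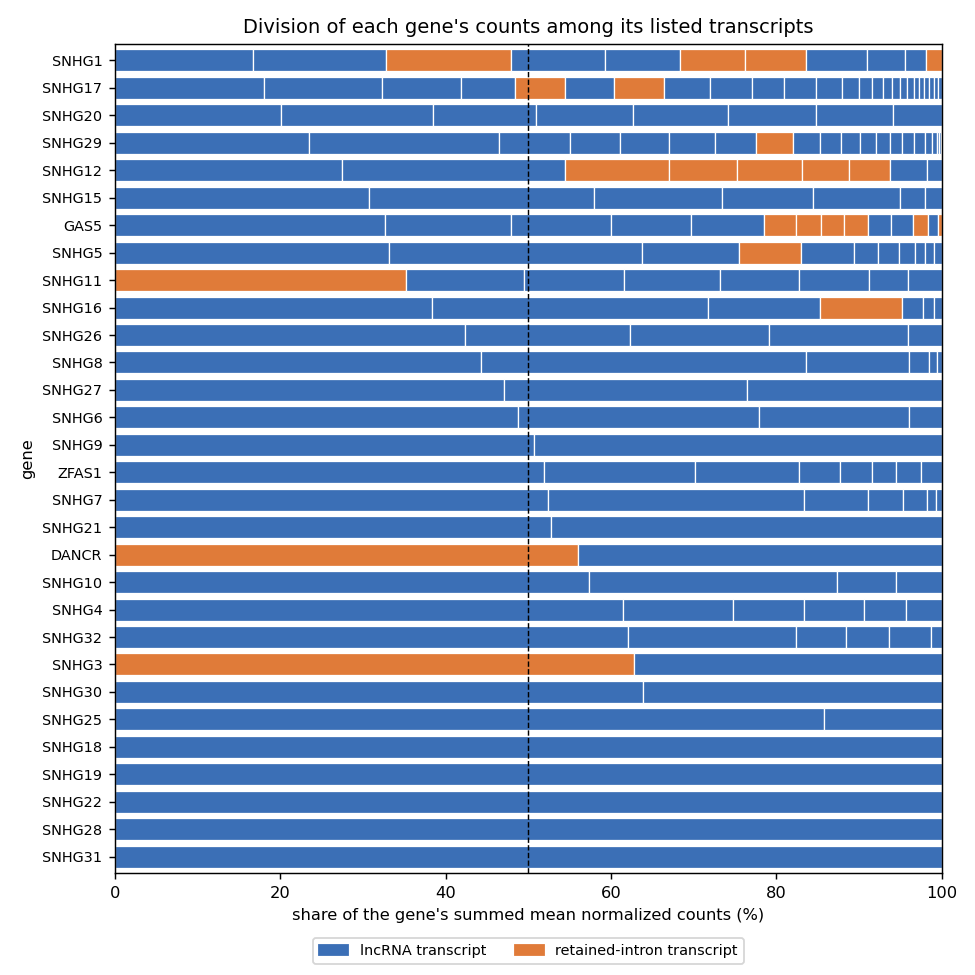
Division of each host gene's summed mean normalized counts (%, 100% per bar) among its listed transcripts, ordered from the leading one at the left, with retained-intron transcripts in orange and a dashed line at 50%. Genes are sorted by the share of the leading transcript, from 16.7% in SNHG1 at the top to 85.8% in SNHG25, above 5 genes with 1 listed transcript.

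Retained-intron transcripts, which keep an intron that other transcripts of the gene lack, made up 23 of the 187 member transcripts (12.3%), and the rest were annotated as lncRNA. In a host gene an intron can hold a snoRNA. The share was 2.27% among transcripts of other lncRNA genes and 15.4% among all listed transcripts. In genes with at least 5 listed transcripts it was 13.2% of 159 member transcripts, 4.07% of 1279 transcripts of other lncRNA genes and 20.0% of all 48868 transcripts. These shares depend on what GENCODE annotates as well as on the reads. The 23 transcripts, from 10 of the 30 genes, had a median of 45.0 counts, from 5.14 to 311. The 164 lncRNA-type transcripts of all 30 genes had a median of 28.7, so the medians cover different genes. The retained-intron transcripts took 10.9% of the counts of the class. In other lncRNA genes retained-intron transcripts took 1.67% of the counts, and in all listed genes 3.57%.

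The 23 transcripts belonged to 10 host genes. GAS5 had 6, SNHG12 5, SNHG1 4 and SNHG17 2, and DANCR, SNHG3, SNHG5, SNHG11, SNHG16 and SNHG29 had 1 each. A retained-intron transcript led the gene in SNHG3 (SNHG3-202, 311 counts, 62.7%), DANCR (DANCR-202, 129 counts, 55.9%) and SNHG11 (SNHG11-215, 55.3 counts, 35.1%). In SNHG11 the lncRNA-type transcripts SNHG11-218, SNHG11-227 and SNHG11-205 followed with 22.6, 18.9 and 18.4 counts. In SNHG3 the remaining SNHG3-201 had 185 counts, and in DANCR the remaining DANCR-206 had 102.

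In SNHG12 the 5 retained-intron transcripts had 38.7 to 98.1 counts (SNHG12-203 the highest) and summed to 39.3% of the gene, although both leading transcripts were of lncRNA type. They summed to 32.4% in SNHG1 and 14.7% in GAS5. In GAS5 each of the 6 was at 42.6 counts or below. SNHG7, SNHG8, SNHG32 and ZFAS1 had no listed retained-intron transcript despite sums above 400. The libraries are from nuclei, and whether a retained-intron count came from an unspliced precursor, from a snoRNA inside the intron or from a stable transcript cannot be told apart in counts per transcript.

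The RefSeq positions of the genes placed 66 snoRNA or scaRNA genes within the spans of 29 of the 30 hosts, with none in SNHG27. GAS5 (chr1:173863901-173869045) spans 11, SNHG1 (chr11:62851978-62855885) spans 9, SNHG17 (chr20:38420588-38435328) spans 5 and SNHG12 (chr1:28578538-28582983) spans 4. Only 15 of the 66 had a listed entry, in 11 hosts, and the other 51 had none under their names or synonyms. Of the 11 in GAS5 SNORD74 alone was listed, with 12.8 counts, and none of the 9 in SNHG1 was.

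The largest count for a hosted RNA was 227 for SCARNA13, a scaRNA inside SNHG10 (chr14:95532912-95534872), whose host transcripts summed to 114. It was the sum of a pair of entries for the same RNA. SNORA71A inside SNHG17 had 76.6, SNORA71C had 44.7 and SNORA71B had 13.5. SNORA17B inside SNHG7 had 65.7, and in SNHG3 SNORA73B had 41.2 and SNORA73A 20.7. Among the 60 snoRNA and 10 scaRNA entries of the table, 32 had the same value as another entry to 6 decimals, as is the case where 1 RNA is annotated under an older and a newer name, and the counts of hosted RNAs are uncertain for this reason. Whether the size of these RNAs limited their recovery in the libraries was not tested.

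Several hosts overlap protein-coding genes, with which they can share reads. On the same strand, SNHG3 overlaps RCC1 (3636 counts against 496), SNHG4 overlaps MATR3 (5280 against 182) and SNHG20 overlaps SEC14L1 (4243 against 138). VSIG8, which SNHG28 overlaps on the same strand, had 9.02 counts against 8.89. The counts of these 4 hosts are therefore uncertain. SNHG4 and MATR3 have the same first annotated base, 139274101 on chromosome 5, so the CTTT of SNHG4 begins 2 bases after the annotated start of both. On the opposite strand, GAS5 overlaps ZBTB37 (1237 counts), SNHG12 overlaps TRNAU1AP (577), SNHG7 overlaps DIPK1B (171) and SNHG22 overlaps MYO5B (89.8 counts against 23.0). SNHG29 overlaps LRRC75A (203 counts against 2606), whose orientation was not determined here. The study's methods name a stranded kit for the IP and input libraries, after depletion of ribosomal RNA. The strand setting of the counting is not given in the sources used here, so the counts of these hosts are uncertain too.

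Genes for the proteins that work with this RNA class were all listed. The box C/D core proteins FBL, NOP56, NOP58 and SNU13, which bind or carry out the methylation, had sums from 701 counts for NOP58 to 9425 for NOP56, itself a snoRNA host. The H/ACA proteins DKC1, the pseudouridine synthase, NHP2, NOP10 and GAR1 had sums from 137 for GAR1 to 2909 for DKC1. All 10 nonsense-mediated decay factors examined had listed transcripts, with sums from 624 for UPF3B to 12875 for the helicase UPF1.

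Protein-coding snoRNA hosts offered the nearest comparison for isoform structure. All 25 were listed, with 250 transcripts and sums from 2064 for RPL21 to 44678 for HSPA8. Their retained-intron transcripts made up 32.4% of the listed transcripts but 7.42% of the counts, against 12.3% and 10.9% in the SNHG class. The share of counts rested largely on RPL4, without which it was 4.08%, and without SNHG3 that of the SNHG class was 8.93%. Retained-intron transcripts led 2 of the 25, RPL4 and RPL17, and 3 of the 30 SNHG-class genes. In the 24 protein-coding hosts with at least 5 transcripts the leading transcript held a median of 62.7% of the counts, against 34.1% in the 16 SNHG-class genes. The effective number of transcripts was 2.10 and 4.49 in these groups. The protein-coding hosts also had far more reads per gene, and whether read number accounts for part of these differences was not tested.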

How the data were processed

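Of the 4 libraries, 2 were Flag-YTHDC1 IP and 2 input, grouped by their titles. Per the labels and the study's methods, the authors mapped reads with STAR (2.7.2b) to a transcriptome with GENCODE v33 annotation (GRCh38), estimated reads per transcript with RSEM (1.2.31), filtered out transcripts that had fewer than 5 reads in over 50% of samples, and used RUVSeq and DESeq2. RSEM divides reads that fit several transcripts by a statistical estimate. The deposited signal used here is the authors' mean normalized count over all libraries. The table also holds the authors' log2 fold changes, standard errors and p-values of their IP and input comparison, which were not used, and no value per library, so the edgeR test planned for counts per library was not run. Depth is unknown, and no interval from library totals can be given. Gene sums are the sums of these means. Gene positions and starts came from RefSeq (GRCh38.p14), matched by symbol for all 30 genes. Gene identifiers of 30 of 30 members matched a separate table of names. Hosted RNAs were RefSeq snoRNA or scaRNA genes inside a host's span, looked up by symbol and synonym. The summary was tested on simulated data. Every member gene is named, with its transcripts that lead or hold at least 10% of it, and the lowest or highest genes of the other lists, whose middle genes are not reported here. Alternatives were minimum counts of 10 and 100, SNHG names alone, and no retained-intron transcripts. Members and lists were chosen with earlier results of these data known. Software was matplotlib 3.10.9, scipy 1.17.1, pandas 2.3.3, numpy 2.4.6 and python 3.11.15.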

Additional observations from a re-analysis of the deposited data

How the results depend on the processing

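With a minimum mean normalized count of 100, 36 transcripts of 13 genes were left of 187, their median count rose from 31.1 to 182, the leading transcript held at least 50% of the gene in 9 genes (16 of 30 as reported, the 5 genes with 1 transcript included), and the median leading share over all genes was 52.9% (51.3% as reported). The minimum removes the low transcripts by construction. With a minimum of 10 the median count was 42.1 and the median leading share 51.32%. With SNHG names alone they were 30.4 and 50.7%. The retained-intron share ran from 9.82% (SNHG names alone) to 14.2% (minimum of 10). Its 95% Wilson interval of 8.34% to 17.8% covers counting of transcripts only. It treats transcripts as independent, although GAS5, SNHG12 and SNHG1 held 6, 5 and 4 of the 23. The settings reuse the same transcripts, so the interval is no test of them. Retained-intron transcripts took 7.42% of the counts of the protein-coding hosts and 4.08% without RPL4, a setting chosen after seeing the data. Without retained-intron transcripts 16 genes still had a leading share of at least 50%. With windows of 5 and 20 bases, chosen after seeing the data, CTTT was found in 8 and 11 of 26 starts. No paired analysis was possible because the table holds no value per library, and for the same reason leaving out a replicate, the replicate block and the other normalization were not run. Shares per transcript length were not run, since lengths were not given.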
